A study of Mus musculus with 108 samples.

Results

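Retinas with moderate glaucoma were compared with retinas of D2-Gpnmb+ control mice. The comparison took in every retina array whose title gave the stage as moderate, 8 arrays from 8 mice, and every control retina array, 10 arrays from 7 mice, out of 48 retina arrays and 108 arrays in the series. Each array measured 1 retina, dissected free of the optic nerve head. The moderate eyes came from female DBA/2J mice aged 10.5 months, a strain that carries mutations in Gpnmb and Tyrp1, both genes of pigment cells. The D2-Gpnmb+ controls were female mice of the same age and background with a functional Gpnmb, and their eyes were labelled as having no glaucoma. Both groups therefore share the DBA/2J background and its Tyrp1 mutation and differ in the Gpnmb allele as well as in disease. How the stage was scored, and whether it was read from the optic nerve, is not given in the labels. The other retina groups used below were 20 DBA/2J arrays labelled no or early glaucoma and 10 labelled severe, also at 10.5 months. The no or early arrays carried 2 labels, numbered 1 and 2, of 10 arrays each, and their means were given equal weight. The number in each description was read as the mouse, and by that reading moderate replicates 2 and 3 came from mice whose other eye was in the severe group.

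Glaucoma is a loss of retinal ganglion cells, the neurons whose axons form the optic nerve. In DBA/2J mice, pigment shed from the iris raises the pressure in the eye, and axons are damaged where they leave the eye, before the cell bodies in the retina die. Injured ganglion cells switch on a program of stress and regrowth genes, Müller glia and astrocytes become reactive, and microglia take up debris and make complement. In bulk tissue, fewer cells of a type and less RNA per cell cannot be told apart.

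Values were log2 signals, so that a difference of 1 is a doubling, and the level of a probe set was not set against that of another gene. A gene was tested where its signal reached log2 5 on at least 8 retina arrays, which left 11322 of 18194 genes, and was called at an adjusted p under 0.05 in limma. Because the moderate group itself has 8 arrays, a gene can pass that filter through it alone, and list members that did not pass are given apart. Their counts come from a fit of all 18194 genes without the filter. The share of all genes under the filter that passed in that fit is not given. The counts therefore have no background and do not set a list apart. Of the tested genes, 1753 differed between moderate and control retinas, or 15.5%, with 802 higher (7.08%) and 951 lower (8.40%). The rises were the larger in size: 72 genes rose by at least 2-fold and 8 fell by as much. Over all tested genes the median difference was -0.01. In 83 genes (0.733%) every moderate array lay above every control array, and in 73 (0.645%) every moderate array lay below.

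The array of moderate replicate 2 stood apart. Its median correlation with the other moderate arrays was 0.96, against 0.983 to 0.990 for the other 7. It held the highest moderate value in 508 of the 802 genes that rose and the lowest in 749 of the 951 that fell. Without it 1035 genes were called, 529 higher and 506 lower, of which 53 rose and 5 fell by at least 2-fold. Main counts below are therefore given with and without that eye. All control mouse numbers began with the same 3 digits, as did those of moderate replicates 3 and 4 and of no other moderate eye. The labels do not say what that range means. Within the control mice's number range, with 2 moderate eyes against 10 control eyes, 321 genes were called, 70 higher and 251 lower, and 715 were called when the model held the number range as a factor. With the mean of the photoreceptor list as a covariate, 351 were called, 233 higher and 118 lower.

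Gpnmb, the gene in which the strains differ, was read in every array first. It ran from 5.21 to 6.41 (median 5.45) in moderate retinas, against 7.29 to 7.88 (median 7.71) in controls, a difference of -2.03 ± 0.16 (SE, n = 8 and 10; adjusted p = 9.97e-13). The groups did not overlap. Mid1, an X-linked ubiquitin ligase gene, ran from 6.29 to 6.85 in moderate retinas and from 7.54 to 8.85 in controls, again without overlap. Neither gene differed between moderate and no or early retinas past the threshold (-0.05 ± 0.14, adjusted p = 0.853, for Gpnmb and -0.14 ± 0.20, adjusted p = 0.705, for Mid1). No or early retinas differed from controls in 5 of 11322 genes (0.0442%): Gpnmb, Mid1, Prph2, Dio2 and Slc25a23, named here after their values were seen. Dio2 did not differ between moderate and control retinas past the threshold (-0.19, adjusted p = 0.383). It was higher in moderate than in no or early retinas (0.43, adjusted p = 0.0128). For the other genes named here, a moderate-control difference cannot be told apart from a strain difference. The Gpnmb allele differs for every other called gene too, and not passing between no or early and control retinas does not clear a gene of it.

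Of 22 reactive glia genes 18 rose, and the largest rise of all tested genes was that of Gfap, the intermediate filament of astrocytes that Müller glia make when stressed. Gfap ran from 7.41 to 11.25 (median 8.65) in moderate retinas, against 5.08 to 6.10 (median 5.46) in controls. Every moderate eye lay above every control eye, and the moderate eyes spread over more than 3 log2 units while the controls stayed within about 1. The mean difference was 3.41 ± 0.29 (SE; adjusted p = 6.67e-12), a 10.6-fold rise, and it was 3.08 without replicate 2 and 2.17 within the controls' number range (adjusted p = 0.00111). Edn2, which encodes the vasoactive peptide endothelin-2, ran from 6.28 to 9.92 (median 7.52) in moderate retinas, against 4.45 to 5.08 (median 4.91) in controls, a rise of 2.99 ± 0.28 (adjusted p = 1.9e-10). Lcn2, a secreted iron-siderophore carrier made by reactive astrocytes, ran from 6.36 to 9.02 (median 7.40) in moderate eyes, against 4.23 to 5.47 (median 4.62) in control eyes. Its rise was 2.75 ± 0.36 (adjusted p = 3.35e-07), and here the highest eye was replicate 9.

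**Figure D1:**
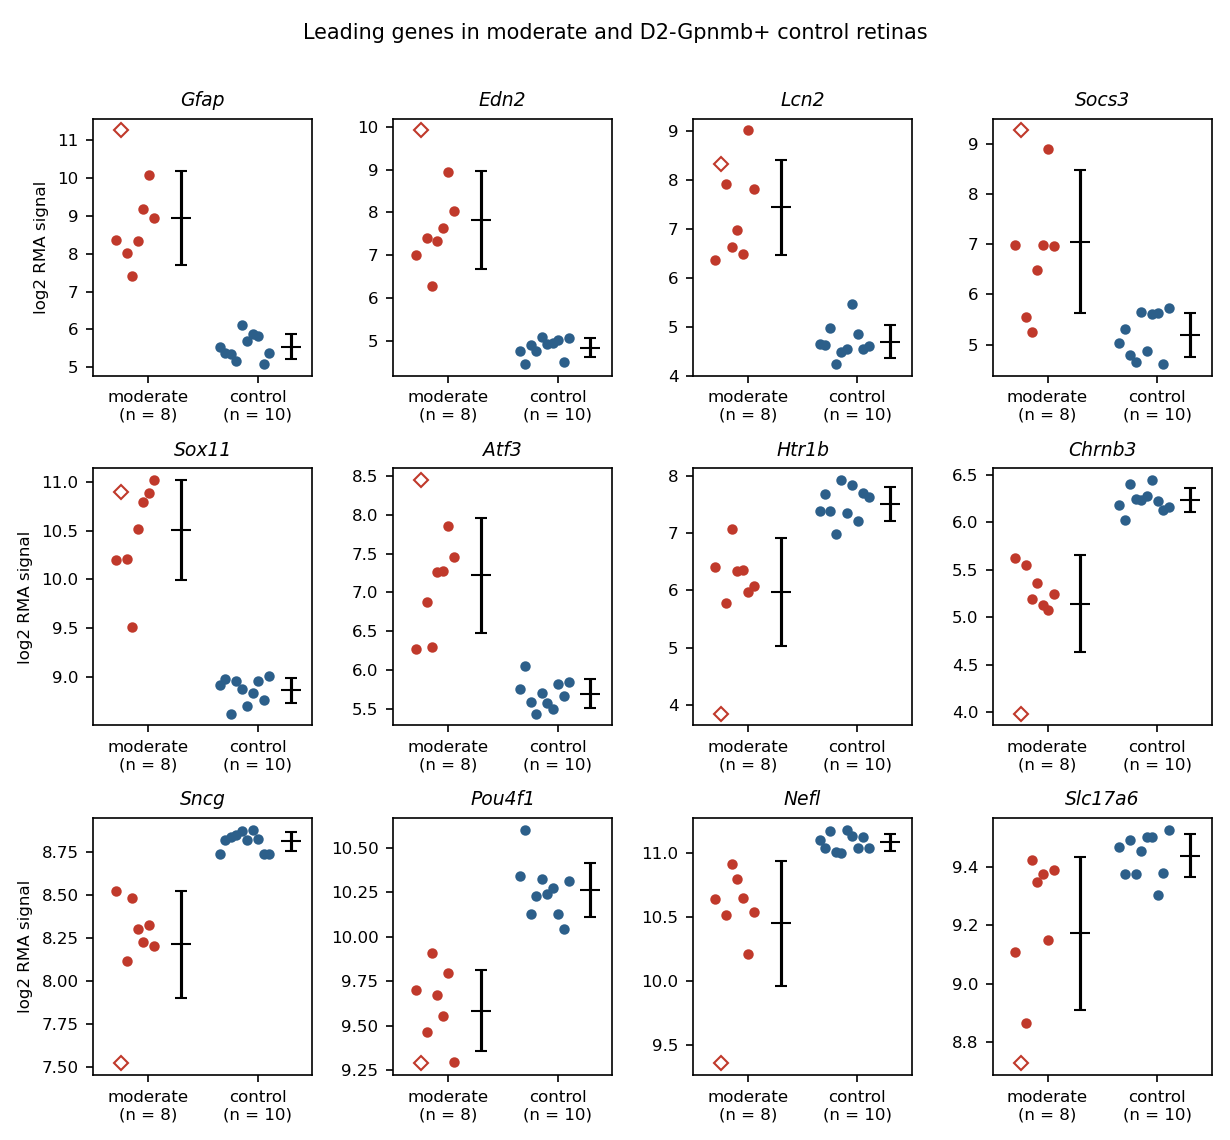
Log2 RMA signal of 12 genes in each moderate retina (red, left; n = 8) and each D2-Gpnmb+ control retina (blue, right; n = 10), with the mean and SD beside the points and moderate replicate 2 as an open diamond. The groups do not overlap for Gfap, Edn2, Lcn2, Sox11, Atf3, Chrnb3, Sncg, Pou4f1 and Nefl, and they overlap at 2 moderate eyes for Socs3, 1 for Htr1b and 4 for Slc17a6.

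Serpina3n, a protease inhibitor that marks reactive astrocytes, ran from 6.12 to 8.52 in moderate retinas and from 4.36 to 5.27 in controls (difference 2.30 ± 0.23, adjusted p = 8e-10). Cebpd, a transcription factor of the acute-phase response, ran from 5.71 to 9.05 in moderate retinas and from 4.06 to 5.07 in controls (2.33 ± 0.25, adjusted p = 5e-09). S100a6, a calcium-binding protein of glia and dividing cells, rose by 2.36 ± 0.28 and Chil1, a secreted chitinase-like protein, by 2.00 ± 0.21. All 4 genes were higher in each of the 8 moderate eyes than in any control eye. Of the 30 reactive astrocyte and Müller glia genes on the array, 22 were tested, 18 rose, none fell and 4 did not pass, with a median difference of 0.96 against -0.01 over all genes. Every moderate array lay above every control array for 9 of them, against 0.733% of all tested genes. Without replicate 2, 17 of the 22 rose, with a median of 0.83. Of the 8 members under the filter, 3 passed as higher when no filter was set. Timp1, a metalloproteinase inhibitor, was among them, at 3.18 to 6.70 (median 3.69) in moderate retinas against 2.84 to 3.30 (median 3.04) in controls, and Fgf2, a growth factor for photoreceptors and glia, did not pass (adjusted p = 0.187).

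Of 18 tested genes that mark Müller glia at rest, 8 rose, none fell and the median was 0.15; without replicate 2, 7 rose. The leading rises were Crym, a thyroid hormone binding protein (1.35 ± 0.20, adjusted p = 2.57e-06), Clu, the secreted chaperone clusterin (0.74 ± 0.08), and Sox9 (0.61 ± 0.07) and Sox2 (0.44 ± 0.07), transcription factors of glial and progenitor cells. Crym ran from 8.76 to 12.03 in moderate retinas and from 8.44 to 8.86 in controls, with replicate 4 inside the control range and replicate 2 far above the others. Glul, the glutamine synthetase that clears glutamate, ran from 12.59 to 13.06 in moderate retinas and from 12.92 to 13.06 in controls and missed the threshold (-0.11 ± 0.04, adjusted p = 0.0503). Of 10 astrocyte identity genes tested, 1 rose and 1 fell: Aldh1l1, a folate enzyme of astrocytes, was higher by 1.20 ± 0.17, and Pla2g7, a lipoprotein phospholipase, measured -0.18 with replicate 2 and -0.14 without it (adjusted p = 0.136). Optic nerve head astrocytes could not be checked through Pax2, for which no probe set named that gene alone.

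**Figure D2:**
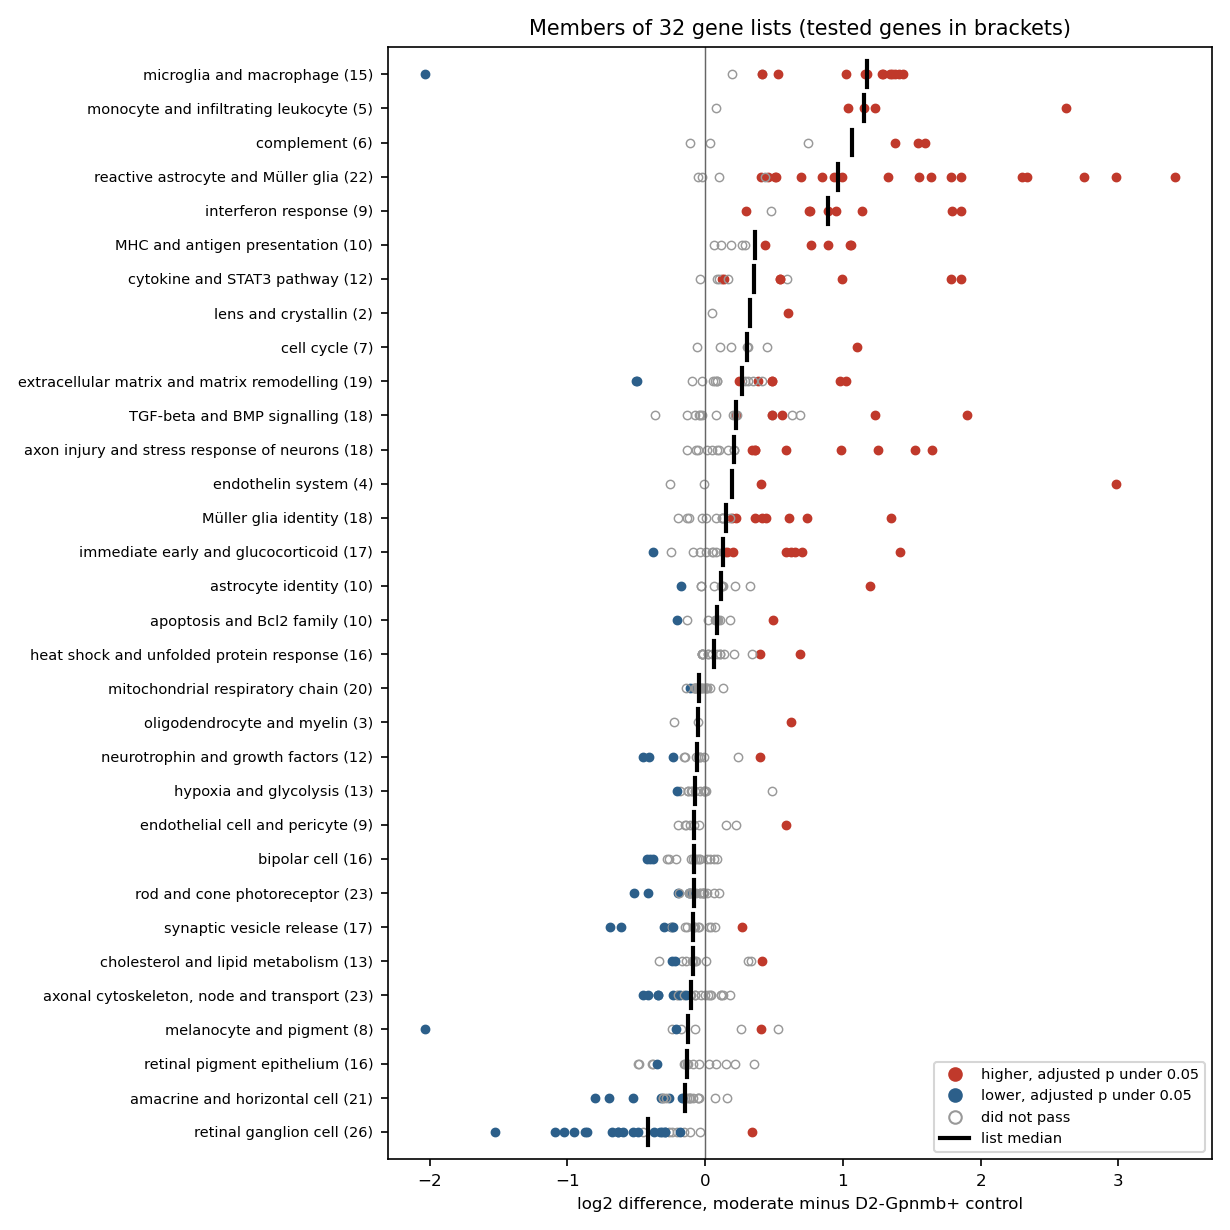
Log2 difference, moderate minus control, of every tested member of 32 gene lists, ordered by list median (black bar); filled red points rose and filled blue points fell at an adjusted p under 0.05, open points did not pass. The microglia, monocyte, complement, reactive glia and interferon lists have medians between 0.89 and 1.18, and the retinal ganglion cell list has the lowest median, -0.41. Only 5 of 20 monocyte, 6 of 18 complement and 9 of 19 interferon genes on the array were tested, and moderate arrays alone can carry a gene past the filter. With all members on the array, the median moderate eye's list mean stood above the control mean by 0.52 (microglia), 0.41 (monocyte), 0.50 (complement), 0.86 (reactive glia) and 0.55 (interferon).

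The pathway from the interleukin-6 family of cytokines to STAT3 rose at several steps. Osmr, the oncostatin M receptor, ran from 6.47 to 8.71 (median 7.29) in moderate retinas, against 5.15 to 6.29 (median 5.60) in controls, a rise of 1.79 ± 0.19 (adjusted p = 5e-09). Its partner Il6st, the shared signalling chain gp130, rose by 0.55 ± 0.09 (adjusted p = 1.02e-05). Stat3, the transcription factor at the end of the path, ran from 7.36 to 8.49 in moderate retinas and from 6.65 to 7.16 in controls, a rise of 0.99 ± 0.12 (adjusted p = 3.9e-08) with no overlap. Socs3, the feedback inhibitor that STAT3 induces, rose by 1.86 ± 0.37 (adjusted p = 0.00031) and was the most uneven of the path. It reached 9.26 and 8.89 in replicates 2 and 9, lay between 6.48 and 6.99 in replicates 1, 7, 8 and 10, and was within the control range of 4.61 to 5.74 in replicates 3 and 4 (5.56 and 5.24). Of 12 tested genes of the list 7 rose and none fell (5 rose without replicate 2), and 3 of the 11 members under the filter passed as higher without it.

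The promoters of Gfap and Socs3 are shown because both genes are known STAT3 targets and each holds the palindrome TTCNNNGAA to which STAT proteins bind. They are the 300 bases from 250 before to 50 after the first start listed by RefSeq (GRCm38.p6), written 5′ to 3′ on the gene's strand with the palindrome in capitals. It begins 2 bases before that start in Gfap and 154 bases before it in Socs3.
Gfap, chr11:102897151-102897450, minus strand: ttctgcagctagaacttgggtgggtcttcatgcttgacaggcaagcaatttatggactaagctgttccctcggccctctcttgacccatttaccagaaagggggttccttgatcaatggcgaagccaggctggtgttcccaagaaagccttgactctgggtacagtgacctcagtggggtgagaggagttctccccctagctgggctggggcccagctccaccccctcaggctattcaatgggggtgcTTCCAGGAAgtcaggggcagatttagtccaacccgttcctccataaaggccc
Socs3, chr11:117969317-117969616, minus strand: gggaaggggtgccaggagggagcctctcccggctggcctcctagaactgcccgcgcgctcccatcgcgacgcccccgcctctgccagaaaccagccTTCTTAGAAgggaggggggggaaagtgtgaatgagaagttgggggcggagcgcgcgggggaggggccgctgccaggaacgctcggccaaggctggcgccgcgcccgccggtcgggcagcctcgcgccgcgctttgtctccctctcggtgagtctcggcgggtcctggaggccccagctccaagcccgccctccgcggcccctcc

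Interferon response genes rose, unevenly between the moderate eyes. Ifit1, an antiviral RNA-binding protein, ran from 4.79 to 10.40 (median 6.45) in moderate retinas, against 4.17 to 5.88 (median 5.05) in controls, a rise of 1.86 ± 0.40 (adjusted p = 0.00105). Rsad2, the antiviral enzyme viperin, ran from 5.01 to 10.06 (median 6.25) in moderate retinas, against 4.51 to 5.22 (median 4.98) in controls, a rise of 1.80 ± 0.36 (adjusted p = 0.000378). Both genes were highest in replicate 2, next in replicates 8 and 9 (8.39 and 7.56 for Ifit1, 7.80 and 7.82 for Rsad2), while Ifit1 lay within the control range in replicates 1, 4 and 7 and Rsad2 in replicate 1. Ifitm3, a membrane protein that blocks viral entry, was higher in every moderate eye, at 7.46 to 10.17 against 5.74 to 7.05 in controls (1.84 ± 0.25, adjusted p = 5.33e-07). Xaf1, an interferon-induced apoptosis factor, rose by 1.14 ± 0.26, and Ifit3, a partner of Ifit1, by 0.95 ± 0.27. Of 9 tested members 8 rose and none fell (7 rose without replicate 2), the list's median was 0.89 (0.62 without replicate 2), and 8 of the 10 members under the filter passed as higher without it.

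The promoters of Ifit1 and Rsad2 are shown because they hold the interferon-stimulated response element, searched on both strands as GAAA, any 2 bases and GAAA, and because both genes ranged widely among the moderate eyes. The element is in capitals and reads here on the opposite strand. Ifit1 has it 2 times, beginning 104 and 85 bases before the start, and Rsad2 has it 1 time, beginning 120 bases before.
Ifit1, chr19:34640639-34640938, plus strand: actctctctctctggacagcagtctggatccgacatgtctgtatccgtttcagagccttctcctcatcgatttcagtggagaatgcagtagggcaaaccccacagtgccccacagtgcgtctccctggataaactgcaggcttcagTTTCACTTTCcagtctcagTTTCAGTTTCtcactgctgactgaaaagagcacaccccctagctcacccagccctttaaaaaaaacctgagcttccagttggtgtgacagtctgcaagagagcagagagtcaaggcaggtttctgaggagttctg
Rsad2, chr12:26456403-26456702, minus strand: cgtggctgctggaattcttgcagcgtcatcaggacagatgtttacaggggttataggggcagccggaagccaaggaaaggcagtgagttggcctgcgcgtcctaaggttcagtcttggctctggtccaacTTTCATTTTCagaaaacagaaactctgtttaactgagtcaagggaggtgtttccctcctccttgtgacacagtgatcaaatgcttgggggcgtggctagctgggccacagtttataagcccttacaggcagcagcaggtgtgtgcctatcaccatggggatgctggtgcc

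Class I antigen presentation genes rose as well. B2m, the light chain of class I molecules, ran from 9.91 to 12.11 in moderate retinas and from 9.49 to 9.84 in controls, without overlap (1.05 ± 0.17, adjusted p = 1.32e-05). Psmb8, a subunit of the immunoproteasome, rose by 1.06 ± 0.19, H2-D1 by 0.89 ± 0.14 and H2-K1, like H2-D1 a class I heavy chain, by 0.77 ± 0.16. Class I heavy chains are near-identical copies, and their probe sets may read each other. Of 10 tested MHC genes 5 rose and none fell, and 5 also rose without replicate 2. All moderate eyes lay above all controls for 2 of the 10, against 0.733% of all tested genes.

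Complement and microglial genes rose as well. C1qb, a chain of the first complement component and made in the retina by microglia, ran from 5.89 to 9.44 (median 7.35) in moderate retinas, against 5.62 to 6.19 (median 5.90) in controls, a rise of 1.60 ± 0.26 (adjusted p = 2.13e-05). Of the moderate eyes only replicate 4 lay within the control range. Serping1, the inhibitor of that component, rose by 1.55 ± 0.21 and C5ar1, the receptor of the C5a fragment, by 1.38 ± 0.24, a gene in which control replicate 4 reached 5.82 while the other controls stayed at or under 4.83. Of 6 tested complement genes 3 rose and none fell, with and without replicate 2. Another 12 were on the array under the filter, and 8 of these passed as higher without it, among them C1qa, another C1q chain, at 4.08 to 6.74 (median 4.93) in moderate retinas against 3.18 to 4.20 (median 3.73) in controls.

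Of 15 tested microglia and macrophage genes 12 rose, with a median of 1.18 (11 and 0.94 without replicate 2). The 1 that fell was Gpnmb, which macrophages also make and in which the strains differ. Lyz2, the lysozyme of macrophages, ran from 5.36 to 7.81 in moderate retinas and from 3.87 to 5.10 in controls, a rise of 1.43 ± 0.22 (adjusted p = 8.73e-06) without overlap. Laptm5, a lysosomal protein of blood-derived cells, rose by 1.41 ± 0.22. Lgals3, the galectin of phagocytic cells, rose by 1.38 ± 0.32 (adjusted p = 0.00177) and by 0.94 without replicate 2, which at 9.64 was its highest eye. Among the chosen microglia markers, Csf1r rose by 1.02 and Cx3cr1 by 0.53, whereas P2ry12 measured 0.19 and did not pass (adjusted p = 0.407). Of the 9 list members under the filter 6 passed as higher without it. The marker Aif1 was 1 of them (1.21, adjusted p = 3.91e-05), and Tmem119 did not pass (0.28, adjusted p = 0.0732). Cd68, a lysosomal protein of activated cells, was under the filter at 3.55 to 6.93 in moderate retinas and 3.38 to 4.22 in controls.

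Signals that recruit leukocytes rose, while most leukocyte markers were too dim to test. Ccl12, a chemokine for monocytes, ran from 3.75 to 7.75 (median 5.66) in moderate retinas, against 2.84 to 3.57 (median 3.16) in controls, with no overlap and a rise of 2.62 ± 0.33 (adjusted p = 1.16e-07). The endothelial adhesion molecules Vcam1 (1.24 ± 0.15, adjusted p = 5.37e-08) and Icam1 (1.16 ± 0.16, adjusted p = 1.51e-06) rose in every moderate eye past the controls. Cxcl13, a chemokine for B cells, rose by 1.04 ± 0.22, with replicate 2 alone at 9.37 and the next eye at 7.65. Of the 20 monocyte and leukocyte genes on the array 5 were tested and 4 rose, and 15 lay under the filter, of which 3 passed as higher without it. Ccl12, Vcam1, Icam1 and Cxcl13 are not confined to leukocytes, so the list's count does not measure infiltrating cells.

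Genes of the injured neuron rose. Sox11, a transcription factor of developing neurons that axon injury brings back, ran from 9.51 to 11.02 (median 10.66) in moderate retinas, against 8.62 to 9.0 (median 8.89) in controls. The groups were clear of each other, with replicate 4 the lowest moderate eye. The rise was 1.64 ± 0.13 (adjusted p = 1.38e-12), and leaving out replicate 2 moved it only to 1.59. Atf3, a stress-induced transcription factor of injured neurons, ran from 6.27 to 8.45 (median 7.27) in moderate retinas, against 5.44 to 6.06 (median 5.69) in controls, a rise of 1.52 ± 0.19 (adjusted p = 7.59e-08) without overlap. Chac1, a glutathione-degrading enzyme induced by the integrated stress response, ran from 4.98 to 7.11 (median 6.56) in moderate retinas, against 4.76 to 5.21 (median 4.97) in controls, a rise of 1.26 ± 0.18 (adjusted p = 1.38e-06). Replicates 3 and 4 lay within the control range, and since these are the moderate eyes of the controls' number range, Chac1 measured 0.05 there (adjusted p = 0.81), while Sox11 measured 0.99 (adjusted p = 0.0039). Tnfrsf12a, the receptor Fn14 that promotes neurite growth, rose by 0.99 ± 0.16 (adjusted p = 1.98e-05).

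Of 18 tested injury genes 8 rose and none fell, with a median of 0.21 (7 rose without replicate 2). Another 6 were under the filter and 4 of these passed as higher without it. Ecel1, a peptidase induced in injured neurons, was 1 of them, at 4.14 to 6.04 (median 5.55) in moderate retinas against 3.63 to 4.06 (median 3.92) in controls. Gal, the neuropeptide galanin, and Sprr1a, a protein of regrowing axons, were singled out after their values were seen. Gal reached 4.68 to 8.29 in moderate retinas against 3.66 to 4.07 in controls, and Sprr1a 3.55 to 6.89 against 2.65 to 3.45, so that for both every moderate eye lay above every control eye. The last of the 4 was Mmp12, a metalloproteinase, with the largest difference (3.17 without the filter, adjusted p = 2.48e-11). It ran from 3.52 to 6.99 in moderate retinas and from 2.35 to 2.76 in controls. In bulk tissue the cells that made it cannot be told, and it enters the injury list means by eye given below. Gap43, a growth cone protein that stands in this list and in that of ganglion cells, rose by 0.34 (adjusted p = 0.0186). It was the 1 gene of the ganglion cell list that rose, and none of that list rose without replicate 2.

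The promoters of Atf3 and Chac1 are shown because the stress transcription factor ATF4 is known to act on both genes and each holds the C/EBP-ATF response element, searched as TGATGNAA on both strands. It is in capitals, reads on the opposite strand in both, and begins 110 bases before the start of Atf3 and 193 bases before that of Chac1.
Atf3, chr1:191183284-191183583, minus strand: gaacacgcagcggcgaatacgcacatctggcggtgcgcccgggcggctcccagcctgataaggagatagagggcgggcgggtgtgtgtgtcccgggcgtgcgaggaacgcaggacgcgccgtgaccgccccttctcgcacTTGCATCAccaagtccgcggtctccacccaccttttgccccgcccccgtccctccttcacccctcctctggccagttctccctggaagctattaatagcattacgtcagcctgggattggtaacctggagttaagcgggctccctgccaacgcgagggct
Chac1, chr2:119350992-119351291, plus strand: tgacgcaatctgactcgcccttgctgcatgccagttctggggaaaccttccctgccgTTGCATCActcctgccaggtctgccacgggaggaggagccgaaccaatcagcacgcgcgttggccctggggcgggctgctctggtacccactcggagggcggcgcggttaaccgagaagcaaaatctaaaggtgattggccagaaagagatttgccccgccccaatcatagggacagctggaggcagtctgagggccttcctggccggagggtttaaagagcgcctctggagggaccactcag

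Each of 6 motifs was looked for on both strands of the first listed promoter of every gene, which RefSeq gave for 9166 of the tested genes and for 59 of the 72 that rose by at least 2-fold. The STAT palindrome TTCNNNGAA lay in 8 of the 59 (13.6%) and in 6.60% of all tested genes with a promoter. The interferon element GAAA, any 2 bases, GAAA lay in 9 (15.3%, against 2.69%), the AP-1 site TGANTCA in 8 (13.6%, against 4.36%) and TGATGNAA in 5 (8.47%, against 2.11%). The C/EBP site TTNNGCAA lay in 7 (11.9%, against 7.75%), and the cyclic AMP element TGACGTCA in 0, against 3.37%. No motif lies whole within another. These are counts of letters with no test, and a window without the letters says nothing about the factor.

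Many ganglion cell genes were lower in the moderate retinas. Of 26 tested, 18 fell, 1 rose and 7 did not pass, with a median difference of -0.41; 16 fell without replicate 2, with a median of -0.34. Every moderate eye lay below every control eye in 8 of the 26, against 0.645% of all tested genes. Htr1b and Chrnb3, both receptor genes, had the list's largest falls. Htr1b, a serotonin receptor carried by ganglion cell axons, ran from 3.85 to 7.06 (median 6.21) in moderate retinas, against 6.98 to 7.92 (median 7.50) in controls, a difference of -1.52 ± 0.22 (adjusted p = 2.03e-06). Only moderate replicate 4, at 7.06, reached the control range, and within the controls' number range the fall did not pass (-1.08, adjusted p = 0.0605). Chrnb3, a nicotinic receptor subunit, ran from 3.99 to 5.63 (median 5.22) in moderate retinas, against 6.03 to 6.45 (median 6.23) in controls, a difference of -1.09 ± 0.13 (adjusted p = 2.29e-08) with no overlap. Its partner subunit Chrna6 ran from 4.75 to 7.37 in moderate retinas and from 7.48 to 7.70 in controls (-0.95 ± 0.17, adjusted p = 8.7e-05), again without overlap.

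The largest falls over all genes included several genes outside that list. Scn4b, a sodium channel subunit, fell to 3.97 to 5.93 in moderate retinas, against 6.13 to 6.56 in controls (-1.35 ± 0.17, adjusted p = 1.16e-07). Ctxn3, a small membrane protein of neurons, differed by -1.20 ± 0.17, and Trarg1, listed as Tusc5 among the ganglion cell genes, by -1.02 ± 0.17. Tbr1, a transcription factor of some ganglion cell types, differed by -0.94 ± 0.18, and Sptssb, a subunit of the enzyme that starts sphingolipid synthesis, by -0.88 ± 0.15. In all 5 genes the groups did not overlap. Csrp3, a muscle LIM protein also made by injured neurons, measured -1.04 ± 0.27 (adjusted p = 0.00549) with replicate 2 and -0.68 without it, and Dleu7 measured -0.88 ± 0.17 and -0.68.

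General ganglion cell markers fell in part. The genes above were picked for the size of their falls, so the smaller differences of the markers do not rank them against those genes. Pou4f1, the transcription factor Brn3a, ran from 9.29 to 9.91 (median 9.61) in moderate retinas, against 10.05 to 10.60 (median 10.26) in controls, a difference of -0.67 ± 0.15 (adjusted p = 0.00135). Sncg, gamma-synuclein, ran from 7.52 to 8.52 (median 8.26) in moderate retinas, against 8.74 to 8.88 (median 8.82) in controls (-0.60 ± 0.09, adjusted p = 7.21e-06). Nefl, the neurofilament light chain, reached at most 10.91 (median 10.59) in moderate retinas, against a median of 11.08 and a highest value of 11.19 in controls (-0.63 ± 0.15, adjusted p = 0.00299). For all 3 each moderate eye was below each control eye. Another, dimmer probe set gave -0.91 for Pou4f1 and -0.79 for Nefl (moderate mean minus control mean). Nefm, the medium chain, differed by -0.64 ± 0.17 and Thy1, a surface protein of ganglion cells, by -0.37 ± 0.08. Slc17a6, the glutamate transporter VGLUT2 of ganglion cells, did not pass (-0.26 ± 0.15, adjusted p = 0.249): it ran from 8.73 to 9.42 in moderate retinas and from 9.30 to 9.53 in controls, and 4 moderate eyes lay in the control range. Rbpms, another ganglion cell marker, did not pass either (-0.45 ± 0.18, adjusted p = 0.0848). It ran from 5.87 to 7.43 in moderate retinas and from 6.82 to 7.38 in controls.

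Some genes of the axon and of transmitter release fell as well, where 8.40% of all tested genes fell (506 of 11322 without replicate 2). Of 23 tested genes of the axonal cytoskeleton, node and transport 7 fell, none rose and 16 did not pass, with a median difference of -0.10. Without replicate 2, 3 of them fell. The node sodium channels Scn1a (-0.45 ± 0.09, adjusted p = 0.000202) and Scn2a (-0.34 ± 0.09, adjusted p = 0.00508) were among the 7. Without replicate 2 the axonal motor gene Kif1a measured -0.39 (adjusted p = 0.0641), close to its -0.42 with that eye, and the dynein chain Dync1i1 -0.17 (adjusted p = 0.229), against -0.34 with it. Of 17 synaptic vesicle genes 5 fell, 1 rose and 11 did not pass, with a median of -0.09 (3 fell and 1 rose without replicate 2). Cplx1, a complexin that gates release, ran from 6.39 to 8.42 in moderate retinas and from 8.44 to 8.90 in controls (-0.69 ± 0.14, adjusted p = 0.000499), Vamp1, a vesicle fusion protein, measured -0.61 ± 0.13, and Syn2, a synapsin, -0.30 ± 0.08. Bsn, a scaffold of ribbon synapses, was higher by 0.27, with probe sets that disagreed in direction.

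Some genes of interneurons and photoreceptors fell too, where 8.40% of all tested genes fell. Of 21 amacrine and horizontal cell genes 6 fell and none rose (4 without replicate 2). They were led by calcium-binding proteins that ganglion cells also hold: Pvalb (-0.80 ± 0.12, adjusted p = 4.36e-06) and Calb2 (-0.70 ± 0.12, adjusted p = 4.56e-05), both without overlap. Calb1, of horizontal and amacrine cells, measured -0.53 ± 0.17 with replicate 2 and -0.23 without it; that eye read 7.39 and the next lowest 9.29. Gad2, an enzyme of GABA synthesis, measured -0.32 with that eye and -0.18 without it (adjusted p = 0.0768). Of 16 bipolar cell genes 3 fell in both fits, namely Car10 (-0.42 ± 0.10), Cabp5 (-0.40 ± 0.10), a calcium-binding protein, and Vsx1 (-0.38 ± 0.10), a transcription factor of cone bipolar cells.

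Of 23 tested photoreceptor genes 4 fell and none rose (2 without replicate 2), and the list's median was -0.08. Prph2, a structural protein of outer segment discs, ran from 9.28 to 10.23 in moderate retinas and from 10.15 to 10.67 in controls (-0.52 ± 0.09, adjusted p = 6.92e-05). It was also lower in no or early retinas than in controls, by 0.37. Nrl, the transcription factor that specifies rods, measured -0.19 ± 0.04, and Opn1mw, the green cone opsin, did not pass (-0.12 ± 0.08, adjusted p = 0.35). The mean of the 24 photoreceptor genes on the array stood 0.38 below the control mean in replicate 2 and between 0.20 below and 0.04 above it in the other 7 moderate eyes. The ganglion cell list stood 0.24 to 0.51 below the control mean in the 7 other eyes, against control eyes between 0.08 below and 0.10 above.

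**Figure D3:**
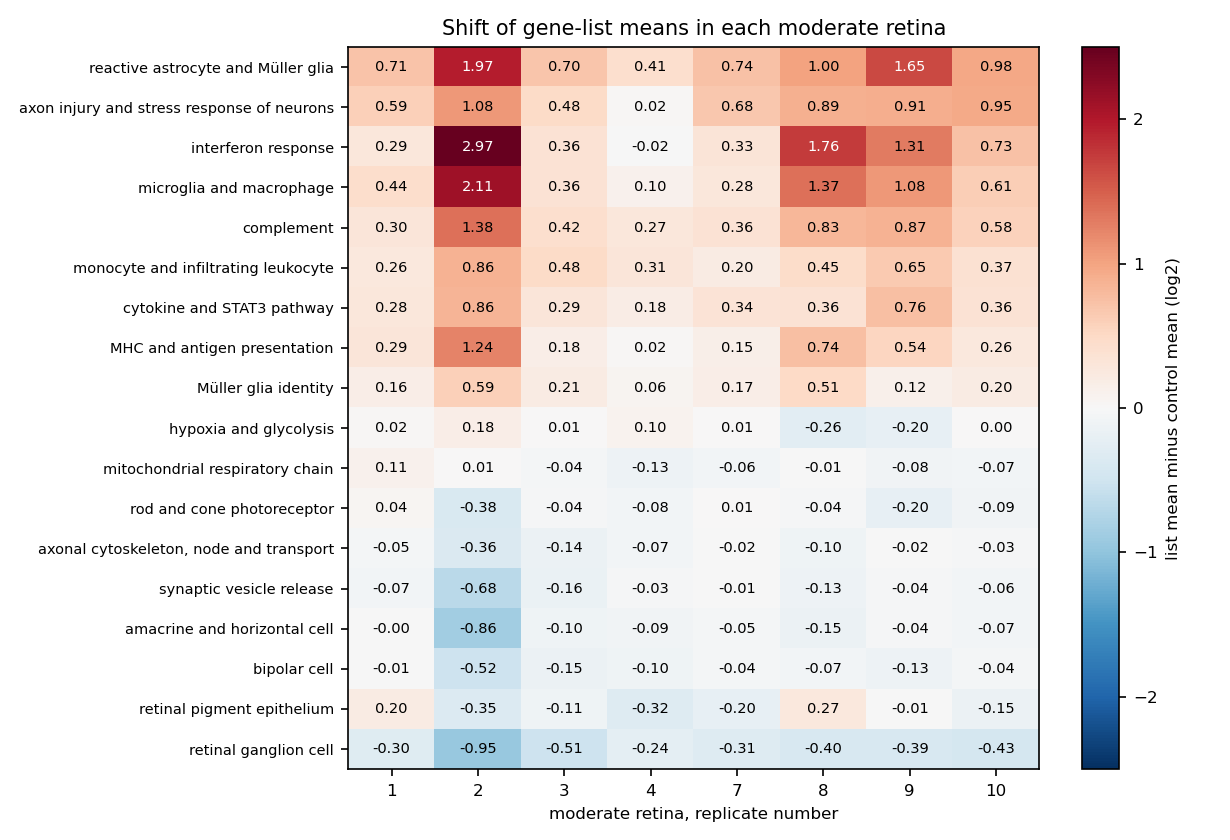
Mean log2 signal of 18 gene lists (all members on the array) in each moderate retina, minus the mean of the 10 control retinas, with the replicate number below each column; red is higher and blue lower than controls. Replicate 2 has the strongest shift in most lists (2.97 for interferon and -0.95 for ganglion cells), replicate 4 has the smallest glial shift (0.41), and the ganglion cell list is below 0 in all 8 eyes.

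Signalling and matrix genes moved in smaller numbers, where 7.08% of all tested genes rose and 8.40% fell. In the endothelin system Edn2 and its glial receptor Ednrb rose (0.40 ± 0.11, adjusted p = 0.009, for Ednrb) and the other 2 tested genes did not pass. Of 18 TGF-beta and BMP genes 5 rose and none fell. Ccn1, a matricellular protein (1.90 ± 0.31, adjusted p = 2.33e-05), Tgfbi, a matrix protein that TGF-beta induces (1.23 ± 0.23), Id1, a BMP target (0.49 ± 0.15), and Tgfbr2, a receptor (0.56 ± 0.16, and 0.40 without replicate 2 with an adjusted p of 0.0778), led them. Of 19 matrix genes 6 rose and 2 fell (4 and 2 without replicate 2). Adamts1, a secreted protease, rose by 1.02 ± 0.13 and Col1a2, a collagen I chain, by 0.98 ± 0.18, while Lamb1, a laminin chain, measured -0.50 ± 0.12 and Mmp9, a gelatinase, -0.49 ± 0.14. Of 12 growth factor and receptor genes 1 rose and 3 fell (1 and 2 without replicate 2): Ntrk2, the BDNF receptor TrkB, was higher by 0.40 ± 0.10 in its brightest probe set but -0.01 in the mean of its probe sets, and Igf1 (-0.45 ± 0.12), Ntrk3 (-0.41 ± 0.11) and Fgf9 (-0.23 ± 0.07) were lower.

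Immediate early genes rose in part: 7 of 17 were higher and 1 lower (3 and 1 without replicate 2), with Egr2 at 4.85 to 6.49 in moderate retinas against 3.73 to 4.72 in controls (1.42 ± 0.24, adjusted p = 4.43e-05) and Fosl2 higher by 0.70 ± 0.12. Egr3 (0.65) and Fos (0.62) measured 0.59 (adjusted p = 0.0691) and 0.53 (adjusted p = 0.0797) without replicate 2. Of 16 heat shock genes 2 rose, where 7.08% of all tested genes did: the chaperone partners Bag3 (0.69 ± 0.14) and Hspb8 (0.40 ± 0.11). Few energy genes passed: 1 of 20 respiratory chain genes (Ndufb3, -0.11) and 1 of 13 hypoxia and glycolysis genes (Higd1a, -0.20, with probe sets that disagreed in direction) fell, against 8.40% of all genes, and Ndufb3 measured -0.12 without replicate 2 (adjusted p = 0.0624). Without that eye 2 of the 13 hypoxia and glycolysis genes fell. Among 10 apoptosis genes Pmaip1, the inducer Noxa, was higher (0.49) and Xiap, an inhibitor of caspases, lower (-0.20). Without replicate 2 they measured 0.44 (adjusted p = 0.075) and -0.14 (adjusted p = 0.143). Of 13 cholesterol genes Insig1 (-0.24) and Lss (-0.22, with probe sets that disagreed) were lower and Apoe (0.42, and 0.29 without replicate 2 with an adjusted p of 0.136) higher. Among 7 cell cycle genes Rrm2, a ribonucleotide reductase subunit, was the 1 called, at 7.99 in replicate 2 and at most 5.79 in the other moderate eyes (1.10, and 0.71 without it with an adjusted p of 0.0901).

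Markers of neighbouring tissue were read for the dissection. The red cell gene Hba-a1 and the myelin gene Mog lay far under log2 5 in both groups (Hba-a1 at most 2.86 in moderate and 2.90 in control retinas, Mog at most 3.34 and 3.18). Lens crystallins were higher in some control eyes than in any moderate eye. The crystallin Cryba1, chosen after its values were seen, was at most 3.78 in moderate retinas, and in controls it was at 7.25 in replicate 8, 5.31 in replicate 2 and 4.69 in replicate 10. Cryaa was at most 3.71 in moderate retinas and at 5.23 in control replicate 8. With the means of the pigment epithelium and lens genes as covariates, 110 of the genes chosen by the naming rule kept their direction and side of the threshold, and 3 (Dync1i1, Pde6g and Ndufb3) no longer passed. Of 16 pigment epithelium genes 1 fell, Rrh, an opsin of that layer (-0.35 ± 0.09), and none rose, where 8.40% of all tested genes fell. Rpe65, its visual cycle enzyme, ran from 7.13 to 9.08 in moderate retinas and from 8.05 to 9.28 in controls and did not pass (-0.48 ± 0.20, adjusted p = 0.0978). Of 8 pigment cell genes Gpnmb and Mitf (-0.22, and -0.14 without replicate 2 with an adjusted p of 0.114) fell and Ednrb rose. Mbp, a myelin protein, did not pass (-0.05, adjusted p = 0.702), while Cnp, a myelin enzyme also made by glia, rose by 0.62 ± 0.12. Cryab, a small heat shock protein of lens and glia, rose by 0.60 ± 0.10, and Kdr, a VEGF receptor, by 0.59 ± 0.08 with no overlap, while 8 of 9 vessel genes tested did not pass.

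Against the 20 no or early eyes, which share the DBA/2J genotype, the moderate eyes differed in 1716 genes (15.2%), with 866 higher (7.65%) and 850 lower (7.51%), and in 823 without replicate 2. Reactive glial genes were higher in 18 of 22 cases, with and without that eye, and ganglion cell genes lower in 20 of 26 (18 without it). Gfap averaged 8.94 ± 1.23 in moderate retinas (SD, n = 8) and 6.53 ± 0.48 in no or early retinas (SD, n = 20), a difference of 2.41 ± 0.25 (SE, adjusted p = 7.75e-09). Sox11 averaged 10.50 ± 0.51 in moderate and 8.98 ± 0.20 in no or early retinas (1.52 ± 0.12, adjusted p = 3.94e-13). The comparisons share the moderate arrays, so they are not independent of each other.

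The 10 severe eyes differed from the moderate eyes in 4340 genes (38.3%), 1910 higher (16.9%) and 2430 lower (21.5%), and in 3822 without replicate 2. Ganglion cell genes were lower again in 19 of 26 cases, with a median of -1.06 (21 cases without replicate 2). Slc17a6 averaged 5.78 ± 0.65 in severe retinas (SD, n = 10) and 9.17 ± 0.26 in moderate retinas (SD, n = 8), a difference of -3.39 ± 0.15 (SE, adjusted p = 6.88e-23), and Pou4f1 measured -2.96 ± 0.15. Chrnb3 (-0.17 ± 0.13, adjusted p = 0.292), Chrna6 (-0.27 ± 0.17, adjusted p = 0.199) and Tbr1 (0.02 ± 0.18, adjusted p = 0.944) did not differ past the threshold, but without replicate 2 Chrnb3 (-0.34, adjusted p = 0.00561) and Chrna6 (-0.55, adjusted p = 2.27e-05) passed. Of the 18 tested injury genes 10 were lower and 2 higher in severe than in moderate eyes, with a median of -0.27 (10 and 1 without replicate 2). The severe-minus-moderate difference was -1.53 ± 0.13 for Sox11 (adjusted p = 1.2e-12), -1.17 ± 0.19 for Atf3 and -1.18 ± 0.18 for Chac1. Along the stages Sox11 averaged 8.86 in controls, 8.98 in no or early, 10.50 in moderate and 8.98 in severe retinas. Glial genes were also lower in severe eyes, in 13 of 22 cases (9 without replicate 2), with Gfap at 7.13 ± 0.38 in severe retinas (SD, n = 10) against 8.94 ± 1.23 in moderate retinas (SD, n = 8; difference -1.82 ± 0.29, adjusted p = 3.82e-06), whereas Lcn2 did not differ past the threshold (0.11 ± 0.36, adjusted p = 0.832).

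**Figure D4:**
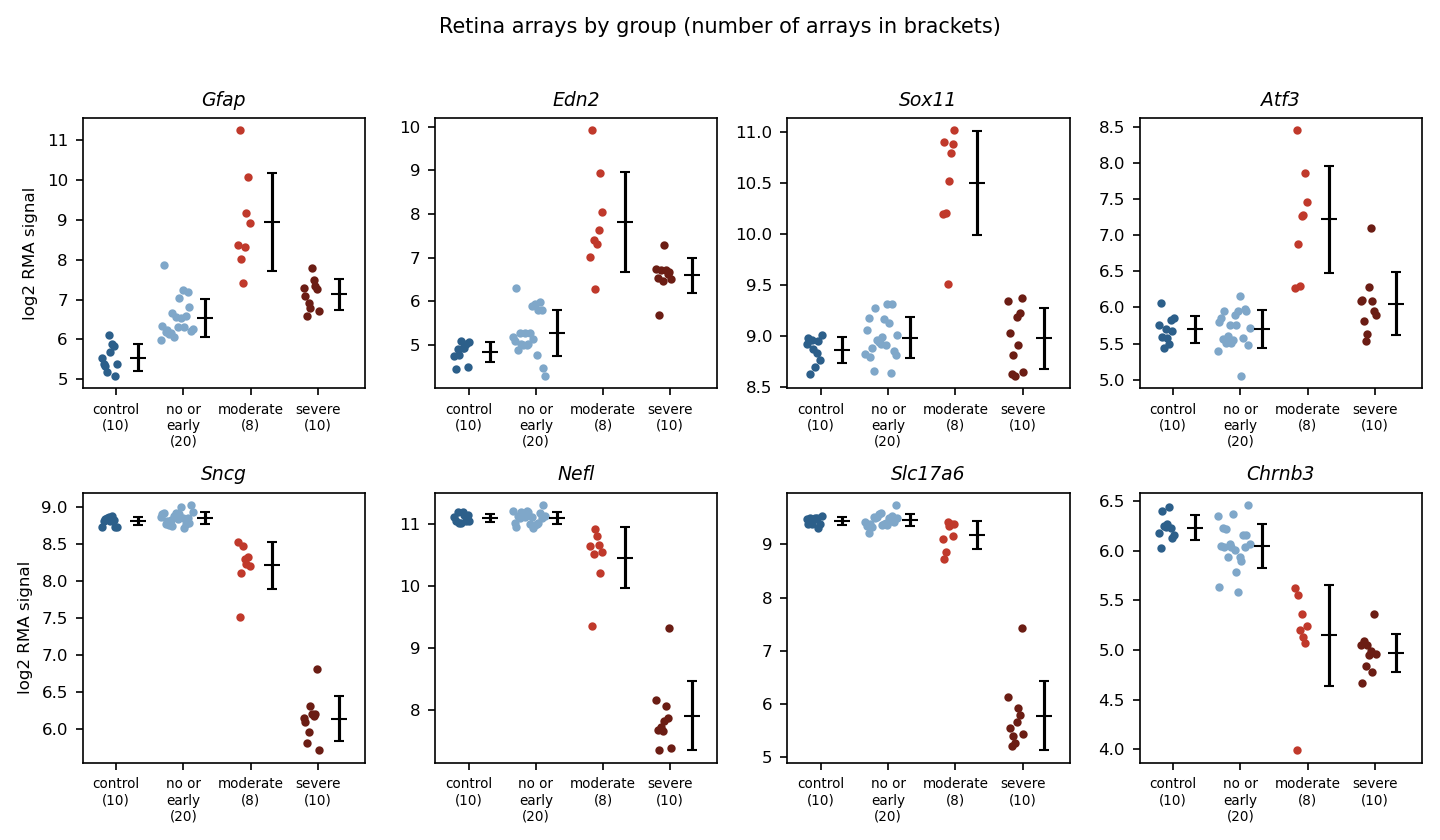
Log2 RMA signal of 8 genes in every retina array by stage, from control over no or early and moderate to severe, with mean and SD beside the points. Sox11 and Atf3 are highest in moderate retinas (means 10.50 and 7.22) and close to the control level in severe ones (8.98 and 6.05), while Slc17a6 stays near its control mean of 9.44 in moderate retinas (9.17) and is low in severe ones (5.78).

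In these lists the moderate eyes spread over a wider range than the control eyes. Replicate 2 held the highest value in 50 and replicate 9 in 19 of the 72 genes that rose by at least 2-fold, and replicate 4 held the lowest in 49. The reactive glia list stood 1.97 above the control mean in replicate 2, 1.65 in replicate 9 and 0.41 in replicate 4, with control eyes between 0.14 below and 0.17 above. The interferon list stood 2.97, 1.76 and 1.31 above it in replicates 2, 8 and 9 and 0.02 below it in replicate 4. The injury list stood 0.48 to 1.08 above it in 7 eyes and 0.02 above it in replicate 4, within the control eyes' range. The ganglion cell list did not follow the same order: after replicate 2 (0.95 below the control mean) the lowest eyes were replicates 3 (0.51 below) and 10 (0.43 below), while the shift in replicate 9 was 0.39 below.

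**Figure D5:**
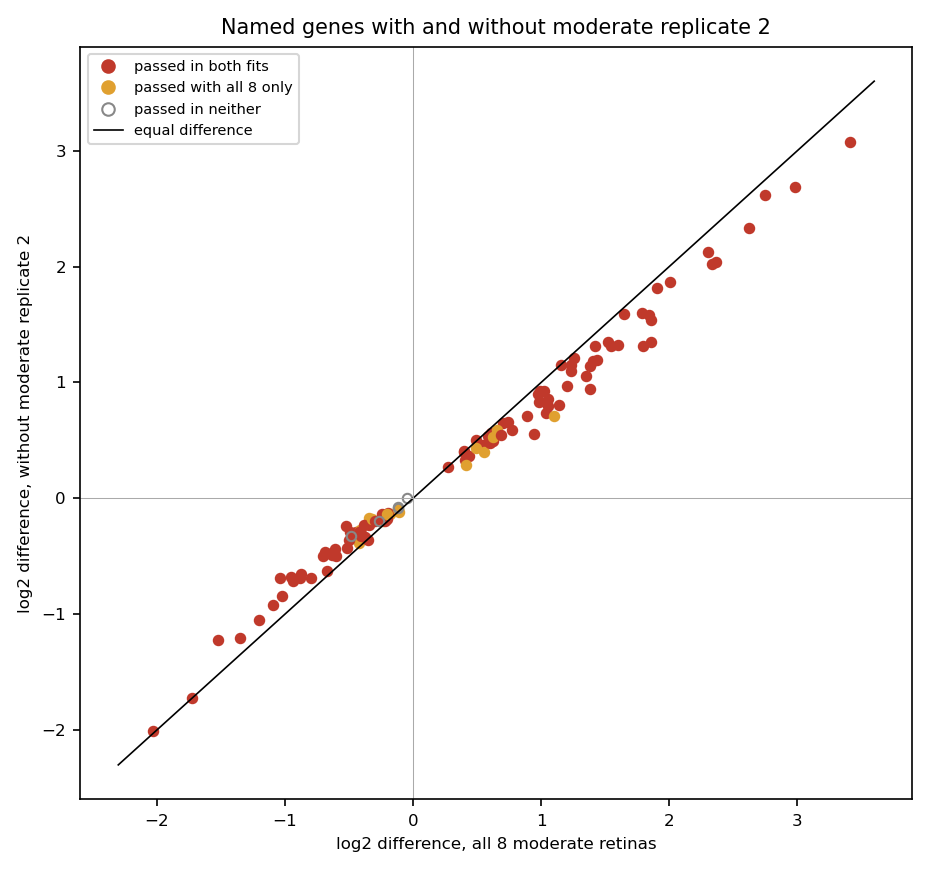
Log2 difference, moderate minus control, of the named genes with all 8 moderate retinas (horizontal axis) and without replicate 2 (vertical axis), with the line of equal difference. Of these differences, 108 are closer to 0 without that eye, as for Gfap (3.41 and 3.08) and Rsad2 (1.80 and 1.31), and orange points passed only with all 8 eyes.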

How the data were processed

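Each retina was hybridised to 1 Affymetrix mouse whole-genome expression array after amplification with a NuGEN kit, per the labels' protocols. The deposited log2 values are RMA signals made by the authors; GCOS, RMA and affy are named without versions in the submitters' processing notes. RMA normalizes arrays to one distribution, so a global shift in RNA cannot be seen, and arrays carry no read depth: the number of arrays limits the precision. Whether all tissues were normalized together is not given in the sources used here.

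Of 45101 probe sets 34958 named 1 gene, 932 several and 9211 none, by GEO's platform annotation. Symbols were updated through Entrez IDs for 34754 probe sets. A gene was represented by the single-gene probe set with the highest retina mean, and was tested where it reached log2 5 on at least 8 arrays. All 48 retina arrays entered 1 limma model (limma 3.58.1, R 4.3.3) with group as the factor and the mouse as a random block (correlation 0.04, by duplicateCorrelation), two-sided, with Benjamini-Hochberg adjustment over 11322 genes. With only the moderate and control arrays in the fit, where only control mice gave both eyes, that correlation was 0.26. Errors beside differences are SE from the pooled fit of all 48 arrays, so a wider spread among the moderate eyes is not fully reflected in them. The fit was run on simulated data in which all groups had the same spread in a gene and the fit was given the within-mouse correlation. That run does not cover the wider spread of the moderate eyes or an eye like replicate 2.

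Genes were named by a rule: Gpnmb, the 12 largest called rises and 12 largest called falls, up to 4 called members of each list by size, and a fixed set of glaucoma and cell type genes. The members and lists were chosen with earlier results of these data known. Members without a single-gene probe set, such as Pou4f2, C3 and C4b, were not analysed here. Alternatives changed the filter, the normalization, the probe sets, the block, the covariates and the arrays used. The number of the title was tried as a block: of 8 moderate and control pairs 3 correlated above 0.1 (r between -0.36 and 0.39), so titles were not taken as pairs. The labels name mice but not litters or processing days, so the p-values cannot account for either. They rest on the spread pooled over all retina groups, not on that of the moderate and control eyes alone. Promoters were taken from RefSeq (GRCm38.p6).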

Additional observations from a re-analysis of the deposited data

Results flagged for a closer look

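In each named gene, the 8 moderate and the 10 control values were checked for a highest or lowest eye whose gap to its neighbour was large against the whole range of the group (Dixon's test). Of 226 such checks 38 picked an eye, where chance gives about 1 in 20, or 11.3. The checks share eyes and genes that move together, so they are not independent.

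Moderate replicate 2 was picked in 29 genes, in 27 as the lowest eye. Among ganglion cell and axon genes the gap took a share of the range of 0.600 for Htr1b, 0.663 for Chrnb3, 0.667 for Chrna6, 0.548 for Nefl, 0.594 for Sncg, 0.622 for Scn1a, 0.619 for Scn2a and 0.756 for Dync1i1. Among the other large falls it was 0.617 for Csrp3, 0.684 for Tbr1, 0.540 for Dleu7 and 0.640 for Sptssb. In interneuron and synaptic genes it was 0.813 for Calb2, 0.721 for Calb1, 0.710 for Gad2, 0.627 for Car10, 0.736 for Vsx1, 0.791 for Cplx1, 0.690 for Vamp1 and 0.618 for Syn2. In photoreceptor genes it was 0.627 for Cngb3 and 0.638 for Nrl. It was 0.542 for Lamb1, 0.693 for Mmp9, 0.581 for Igf1, 0.578 for Mitf and 0.554 for Insig1. The same eye was the highest for Cxcl13 (0.580) and Rrm2 (0.562).

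Moderate replicate 9 was picked as the highest for Icam1 (0.552). Among control eyes, replicate 5 was the highest for Chil1 (0.561) and Cryab (0.621), and replicate 4 for C5ar1 (0.533). Control replicate 6 was the lowest for Lyz2 (0.536) and Col1a2 (0.494). Control replicate 2 was the lowest for Igf1 (0.472) and Gad2 (0.477) and the highest for Pou4f1 (0.470).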

How the results depend on the processing

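The count of genes called between moderate and control retinas was 1753, and under 9 of 14 other settings it lay between 1297 and 1898. It was 652 with only the groups compared in the fit, 715 when the number range of the mice was a factor, 351 with the photoreceptor mean as a covariate, 1048 without the moderate eyes of mice that also gave a severe eye and 321 within the controls' number range, where 2 moderate eyes remained. Against no or early retinas the count of 1716 lay between 1154 and 1930 under 9 of 13 settings. It was 919 with only the groups compared, 827 with array weights, 369 with the photoreceptor mean as a covariate and 844 without the moderate eyes of mice with a severe eye. Between severe and moderate retinas 4340 genes were called, and 2971 to 5630 under the 13 settings tried. Apart from the construction of the smaller sets, the cause of these moves was not tested.

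Leaving out each array in turn gave 1035 to 2004 genes for moderate against control, 823 to 2029 for moderate against no or early and 3822 to 4499 for severe against moderate retinas, with the lowest count without moderate replicate 2 in each. With the replicate number as a block in place of the mouse, 1732, 1664 and 4258 genes were called, and no named gene changed its call.

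Of the 108 named genes that were called, 59 kept their call under every setting other than the controls' number range. Within that range, where 2 moderate eyes remained, 51 named genes, called or not, kept their direction and side of the threshold. There 58 no longer passed and 4 turned in sign. Over all settings the sign turned in 6 genes. Mbp, not called, measured 0.00265 with array weights, 0.0261 with the photoreceptor covariate, 0.0581 without the eyes of mice with a severe eye, and between -0.0919 and 0.00632 with each array left out in turn. Opn1mw, not called, measured 0.0196 with that covariate and 0.0774 within the controls' number range, and Glul, not called, 0.0433 there. Tgfbr2 measured -0.126 and Xiap 0.0134 within that range. Ntrk2 measured -0.0145 as the mean of its probe sets. The list counts and named genes without replicate 2, and the untested members without a filter, were added after seeing the data.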
